A study of Mus musculus with 6 samples.

Results

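The Wnt ligands, their Frizzled receptors and the genes that regulate this pair were followed in mouse small intestinal organoids treated with LDL. The members were the protein-coding genes of the deposited table named Wnt, Fzd, Sfrp or Dkk with a number, together with Lrp5, Lrp6, Lgr4, Wls and Porcn. This name rule gave 42 of 55416 genes, with 19 Wnt ligands, 10 Frizzled receptors, 4 secreted Frizzled-related proteins (Sfrp), 4 Dickkopf (Dkk) proteins, 3 partner receptors and 2 genes of Wnt secretion. Organoids were grown from small intestinal crypts of 3 WT mice of the C57BL/6 strain, and each mouse gave 1 LDL-treated and 1 PBS-treated library of total RNA depleted of ribosomal RNA. LDL, the lipoprotein that carries most of the cholesterol in blood, was given at 50 μg/ml for 5 days, and PBS was the vehicle control. Animal ages were not given in the labels. The cultures started from isolated crypts in Matrigel, so that the mesenchyme, a source of Wnt ligands in the tissue, was left out by design. Which Wnt pathway factors the commercial growth medium supplied is not given in the sources used here. The libraries are numbered below by mouse, and values per library are always given in the order of mouse 1, 2 and 3.

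Wnt proteins are lipid-modified ligands. Porcn attaches the acyl chain, and Wls carries the modified ligand to the cell surface. There the ligand binds a Frizzled receptor together with Lrp5 or Lrp6, which prevents the destruction of β-catenin and lets it act with TCF/LEF factors on target genes. Sfrp proteins bind ligands outside the cell, Dkk proteins block Lrp5 and Lrp6, and Lgr4 is a receptor for R-spondins, which keep Frizzled receptors at the surface. In the intestinal crypt this pathway maintains stem cells and Paneth cells. Wnt3 is known as a Paneth cell ligand and Wnt2b as a ligand of the mesenchyme.

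The libraries held 22061545 to 31073360 reads on genes, of which 0.0788% to 0.0883% fell on the 42 members. The 10 epithelial markers checked, Epcam and Cdh1 among them, were expressed in all 6 libraries. Their summed normalized counts were 111600, 113300 and 114200 with PBS and 157900, 125300 and 160900 with LDL, and Krt8, Krt18 and Krt20 were called higher. Of the 10 markers, 9 had a positive log2 fold change and 1, Epcam, a negative one (-0.12, adjusted p = 0.462). Epcam was at 22020, 23140 and 24330 with PBS and 20050, 22840 and 21170 with LDL. The LDL-treated libraries of mouse 1 and mouse 3 stood apart. Reads were found on 35781 and 32751 genes in these, compared with 29285 to 30018 in the PBS-treated libraries and 29870 in the LDL-treated library of mouse 2. The LDL-treated library of mouse 1 also had 68.3% of its reads on protein-coding genes, compared with 77.1% to 81.8% in the others. Results on low-level members that rest on these libraries are marked below. The p-values rest on how the difference between LDL and PBS varied among these 3 mice, with variance information shared across genes.

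LDL and PBS were compared within mice with limma on log2(normalized count + 1). The 18459 genes whose normalized counts averaged 10 or more were tested, and p-values were adjusted over all of them. Calls required an adjusted p under 0.05 together with a change beyond 1.5-fold. In total, 19 of the 42 members reached this mean and 23 did not. Of the 19, 1 was called higher with LDL (Wnt7a) and 2 were called lower (Fzd1 and Fzd4), which is 15.8% of those tested. Over all genes tested, 9.14% were called, 5.68% higher and 3.46% lower. Wnt7a (mean 2.24 with PBS and 51.0 with LDL) reached the mean needed for a test only through its LDL-treated libraries. The share of members called is therefore only a description. A further 3 members passed the adjusted p with a change under 1.5-fold, namely Lrp5 (higher), Fzd5 (lower) and Wls (lower). At any fold, 8.27% of all genes tested passed the adjusted p higher and 7.45% lower. The median log2 fold change was -0.01 over the 19 members and -0.02 over all genes tested. Without the mouse as a block, none of the members was called, while 162 of all genes (0.878%) were called higher and 73 (0.395%) lower.

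**Figure D1:**
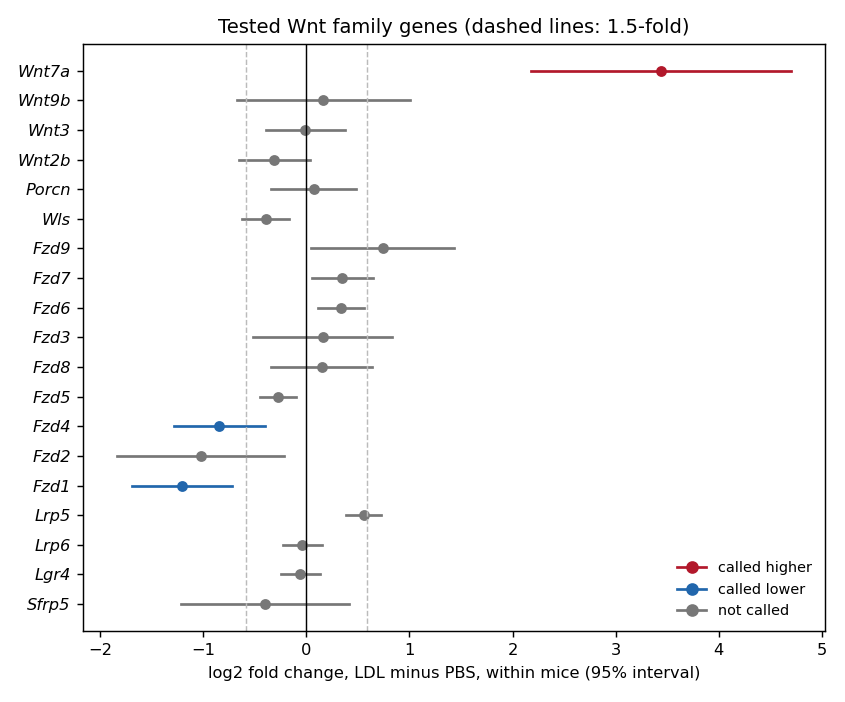
Log2 fold change (LDL minus PBS, within mice, n = 3) of the 19 members tested, with points for the estimate, bars for the 95% interval and dashed lines at 1.5-fold. Wnt7a lies at 3.44, Fzd1 and Fzd4 lie at -1.20 and -0.84, and Wnt3, Lrp6 and Lgr4 lie within 0.06 of 0.

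Among the ligands, Wnt3 had the highest level in PBS-treated organoids. On the scale of normalized counts per kilobase of exon, which allows genes to be compared, Wnt3 was at 43.6 ± 11.3 (SD, n = 3), Wnt2b at 22.6 ± 4.36 and Wnt9b at 5.95 ± 2.55. The ranges of these 3 ligands did not overlap. The other 16 ligands were at a mean of 1.09 or less, and neighbors in that order overlapped. Wnt3 therefore made up 50.3% to 62.9% of the summed level of all 19 ligands in PBS-treated libraries.

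**Figure D2:**
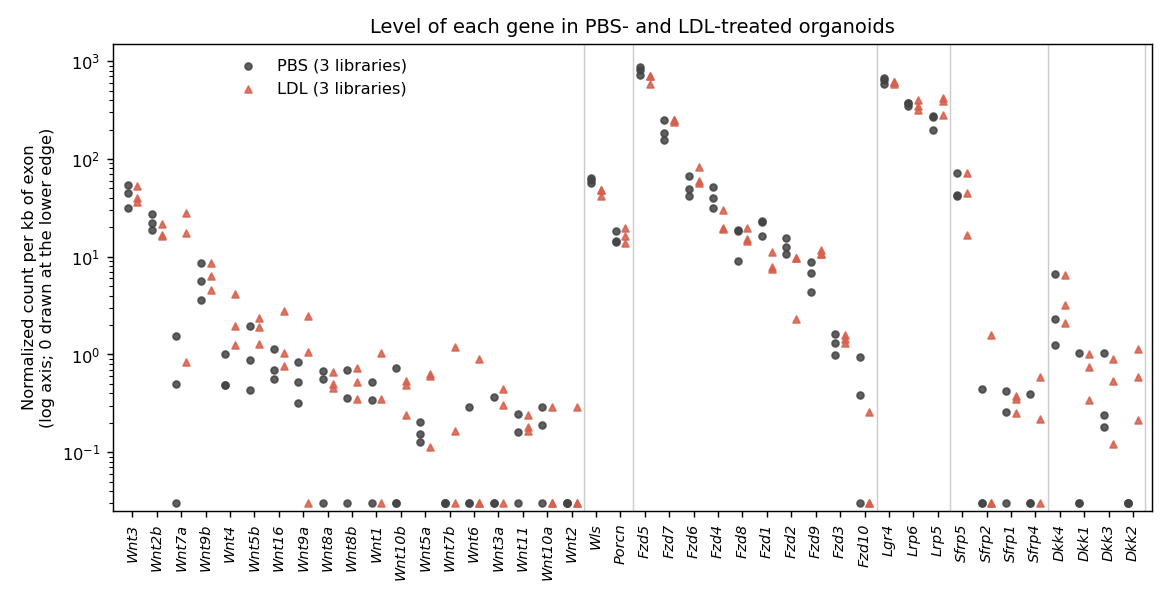
Level of each of the 42 members in normalized counts per kilobase of exon (log axis, 0 drawn at the lower edge), with circles for the 3 PBS-treated and triangles for the 3 LDL-treated libraries, and vertical lines between families. Wnt3, Fzd5, Lgr4, Sfrp5 and Dkk4 lead their families, and most of the remaining Wnt, Sfrp and Dkk genes lie near or below a level of 1.

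Wnt3 gave no call. Its normalized counts were 142, 99.4 and 170 with PBS and 113, 125 and 166 with LDL. It was lower in mouse 1, higher in mouse 2 and nearly level in mouse 3. The log2 fold change was -0.01 with a 95% interval of -0.39 to 0.38 (adjusted p = 0.981). Paneth cell products were measured beside it, since this cell is the known source of the ligand. Of 13 Paneth markers tested, 4 were called lower (Defa17, Defa24, Defa26 and Itln1) and 2 higher (Mmp7 and Pnliprp2). The shares over all genes tested were 3.46% lower and 5.68% higher. The summed normalized count of the 14 listed Paneth markers was 25180, 18320 and 29510 with PBS and 14460, 17440 and 16420 with LDL. The drop was small in mouse 2. Defa genes are near-identical copies, so their counts may be split between them. In RNA from whole organoids, fewer cells of a type and less RNA per cell cannot be told apart.

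Wnt2b and Wnt9b also gave no call. Wnt2b was lower with LDL in all 3 mice, at 150, 121 and 103 normalized counts with PBS and 120, 89.1 and 91.1 with LDL, but the groups overlapped (log2 fold change -0.31, 95% interval -0.66 to 0.04, adjusted p = 0.215). Wnt9b, which lies 24320 bases from Wnt3 on chromosome 11, changed in different directions among mice (log2 fold change 0.16, 95% interval -0.68 to 1.004, adjusted p = 0.807). Leaving out mouse 2 turned its log2 fold change to -0.37.

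Wnt7a, a ligand best known from the nervous system, limbs and reproductive tract, was the single member called higher. It lies at chr6:91340959-91388460 on the minus strand of GRCm39. Its normalized counts were 5.10, 0 and 1.63 with PBS and 92.7, 2.73 and 57.7 with LDL. In reads, these were 5, 0 and 2 with PBS and 76, 3 and 69 with LDL. The LDL-treated libraries of mouse 1 and mouse 3 were high, while the LDL-treated library of mouse 2 lay below the PBS-treated library of mouse 1, so that the groups overlapped. In mouse 2 both libraries were at or under 3 reads, the number that a count of 0 allows. The log2 fold change was 3.44 ± 0.54 (SE; 95% interval 2.18 to 4.70, adjusted p = 0.00606) on the scale of log2(normalized count + 1). Wnt7a reached the mean needed for a test only through its LDL-treated libraries, and the size of the change depended on the added count, being 2.38 with a pseudocount of 5 and 4.52 in edgeR on the recovered reads. Without mouse 3 the adjusted p was 0.102, and without the block it was 0.176.

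Per kilobase of exon, Wnt7a was at 28.2, 0.829 and 17.5 in the LDL-treated libraries, compared with 1.55, 0 and 0.495 in the PBS-treated ones. It therefore made up 26.7%, 1.17% and 16.7% of the summed ligand level with LDL, while Wnt3 made up 34.2%, 56.2% and 50.1%. The libraries with high Wnt7a are the pair in which more genes had a read. As a measure of reads on genes known mainly from sensory neurons, the normalized counts of 1547 olfactory and vomeronasal receptor genes, a list chosen after the data were seen, summed to 1145, 1511 and 1096 with PBS and to 4198, 1119 and 1705 with LDL. Wnt7a and this sum were both highest in the LDL-treated libraries of mouse 1 and mouse 3, and the part of this in the Wnt7a values was not tested. Antisense genes overlap 205 and 35 of its 3291 exon bases, and the strand setting of the counting was not given in the sources used here.

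The promoter of Wnt7a is shown because the gene was the single ligand called. It comes from RefSeq (GRCm38.p6), which held windows for 27 of the 42 members, and covers the 250 bases before the start on the strand of the gene, at chr6:91411354-91411603, written 5′ to 3′.
Wnt7a: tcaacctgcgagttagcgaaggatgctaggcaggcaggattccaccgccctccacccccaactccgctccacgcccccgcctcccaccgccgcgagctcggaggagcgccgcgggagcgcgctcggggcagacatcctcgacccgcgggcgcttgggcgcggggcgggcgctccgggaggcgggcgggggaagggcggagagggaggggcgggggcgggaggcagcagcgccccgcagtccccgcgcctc
The GC content was 77.6%, above that of 97.65% of the 32851 promoter windows in the RefSeq table. The TCF/LEF letters (CTTTGAT and its variants CTTTGTT, then CTTTGAA and lastly CTTTGTA), searched on both strands, did not occur in it, nor did AGGTCA, the core letters of nuclear receptor sites. The TCF/LEF letters occurred in 14.8% of all windows and in 4 of the 30 windows of members (Dkk1, Fzd7, Wnt11 and Wnt5b). AGGTCA occurred in 14.02% of all windows and in 1 window of a member (Wnt16). An absent match says only that these letters are not in this window.

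The other 15 ligands stayed under the mean needed for a test, with 3 to 50 reads each over all 6 libraries. Wnt4, a ligand known from kidney and reproductive tract, had 5, 2 and 3 reads with PBS and 8, 7 and 25 with LDL, and its groups did not overlap. In edgeR on the recovered reads with no filter, an alternative chosen after the data were seen, Wnt4 was called higher (log2 fold change 1.87, adjusted p = 0.0172), as were 3.39% of all genes in that test. Wnt7b had no read with PBS and 5, 0 and 1 with LDL, and Wnt2 had 3 reads in the LDL-treated library of mouse 1 and none elsewhere. Wnt5b, a noncanonical ligand, had 11, 4 and 3 reads with PBS and 11, 8 and 13 with LDL, and 1244 of its 5702 exon bases overlap Fbxl14 on the opposite strand, a gene with a mean normalized count of 1803. Over all 23 members that were not tested, the reads summed to 40, 32 and 28 with PBS and 81, 41 and 80 with LDL. These sums were again highest in the LDL-treated libraries of mouse 1 and mouse 3, and the part of the library differences in them was not tested.

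Of the secretion genes, Wls fell slightly and Porcn gave no call. Wls was at 831, 770 and 875 normalized counts with PBS and 661, 654 and 569 with LDL, and it was lower with LDL in all 3 mice with no overlap of the groups. The log2 fold change was -0.40 (95% interval -0.63 to -0.16, adjusted p = 0.0345), which is 1.31-fold lower. It did not pass the adjusted p in DESeq2 (0.0541), without mouse 1 (0.0716), without mouse 3 (0.355) or without the block (0.106). Porcn was at 124, 98.2 and 95.3 with PBS and 110, 92.8 and 132 with LDL, and these values overlapped (log2 fold change 0.07, 95% interval -0.34 to 0.49, adjusted p = 0.827).

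Fzd5 was the leading Frizzled receptor. In PBS-treated organoids it was at 799 ± 68.7 normalized counts per kilobase of exon (SD, n = 3), followed by Fzd7 at 197 ± 46.0, Fzd6 at 52.9 ± 12.9 and Fzd4 at 41.1 ± 10.2. The ranges of Fzd5 and Fzd7 overlapped with no other receptor, whereas those of Fzd6 and Fzd4 overlapped. Fzd1 (20.7), Fzd8 (15.4) and Fzd2 (12.9) formed a run of overlapping neighbors, Fzd9 (6.66) and Fzd3 (1.31) were lower, and Fzd10 had 5 reads in all 6 libraries.

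Of the 9 Frizzled receptors tested, 2 were called lower, none was called higher and 6 did not pass the adjusted p. Over all genes tested, 3.46% were called lower and 5.68% higher. Fzd1, a receptor of the β-catenin branch, was at 68.4, 95.7 and 96.9 normalized counts with PBS and 32.9, 47.3 and 31.8 with LDL. All 3 LDL-treated libraries lay below all PBS-treated ones. The mean was 87.0 ± 16.1 with PBS and 37.3 ± 8.64 with LDL (SD, n = 3). This gave a log2 fold change of -1.20 ± 0.21 (SE; 95% interval -1.69 to -0.72, adjusted p = 0.00846). Without mouse 3 the adjusted p was 0.136, and without the block it was 0.0639.

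Fzd4, the receptor of Norrin as well as of Wnt ligands, was at 354, 276 and 214 normalized counts with PBS and 132, 204 and 134 with LDL. These groups did not overlap either, and the drop was largest in mouse 1. The mean was 281 ± 70.2 with PBS and 156 ± 41.0 with LDL (SD). The corresponding log2 fold change was -0.84 ± 0.19 (SE; 95% interval -1.28 to -0.40, adjusted p = 0.0230). The adjusted p was 0.0796 without mouse 1, 0.163 without mouse 3 and 0.119 without the block. The log2 fold change without mouse 1 was -0.56.

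Fzd2, whose protein is close to Fzd1 and Fzd7, was at 38.8, 46.0 and 57.0 normalized counts with PBS and 8.54, 35.5 and 36.0 with LDL. The groups did not overlap, but the LDL-treated library of mouse 1 lay far below the other LDL-treated libraries and the adjusted p was 0.0893 (log2 fold change -1.03, 95% interval -1.83 to -0.22). The adjusted p was 0.00536 without mouse 2 (log2 fold change -1.36) but 0.405 without mouse 1 (-0.51), and it was 0.203 in DESeq2 and 0.110 in edgeR. In edgeR without a filter, the alternative chosen after the data were seen, Fzd2 was called lower (log2 fold change -0.865, adjusted p = 0.00623). With these, 5 of the 19 members tested had LDL values all below the PBS values (Fzd1, Fzd2, Fzd4, Fzd5 and Wls), compared with 12.3% of all genes tested. In the other direction there were 2 (Lrp5 and Fzd9), compared with 11.9%.

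Stromal markers were measured beside these receptors. Of 13 markers, 11 were too low to be tested. Col1a1 and Pdgfra were at most 9.76 and 4.88 normalized counts in any library. The summed level of the list was 145 to 173 with PBS and 87.3 to 137 with LDL, most of it from Vim, which passed the adjusted p (log2 fold change -0.56, adjusted p = 0.0470). Pdgfrb was at 24.5, 29.8 and 17.9 with PBS and 9.76, 11.8 and 14.2 with LDL (adjusted p = 0.0927). The list did not move as one. Among the low markers, Col3a1 was at 0, 0 and 0.814 with PBS and 8.54, 0.909 and 5.85 with LDL, and Col6a3 was at 0, 1.24 and 0 with PBS and 11.0, 2.73 and 2.51 with LDL. Dcn was at 0 in all PBS-treated libraries and at 4.88, 0 and 2.51 with LDL. Vim and Pdgfrb were thus lower with LDL without overlap, as Fzd1, Fzd2 and Fzd4 were, whereas Col3a1 and Col6a3 were higher without overlap. For Col3a1 the values that nearly meet, 0.909 in the LDL-treated library of mouse 2 and 0.814 in the PBS-treated library of mouse 3, are 1 read each. The highest values of Col3a1 and Dcn lay in the LDL-treated libraries of mouse 1 and mouse 3, and that of Col6a3 in mouse 1. The part of stromal RNA in the receptor values was not tested.

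The promoters of the called receptors are shown because these genes fell together. The windows are again the 250 bases before the RefSeq start (GRCm38.p6), at chr5:4758217-4758466 on the minus strand for Fzd1 and at chr7:89404116-89404365 on the plus strand for Fzd4.
Fzd1: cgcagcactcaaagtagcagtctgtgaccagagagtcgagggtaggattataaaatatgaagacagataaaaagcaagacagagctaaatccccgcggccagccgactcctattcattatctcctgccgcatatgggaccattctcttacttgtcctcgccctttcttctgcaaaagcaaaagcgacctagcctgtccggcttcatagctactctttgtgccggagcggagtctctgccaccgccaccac
Fzd4: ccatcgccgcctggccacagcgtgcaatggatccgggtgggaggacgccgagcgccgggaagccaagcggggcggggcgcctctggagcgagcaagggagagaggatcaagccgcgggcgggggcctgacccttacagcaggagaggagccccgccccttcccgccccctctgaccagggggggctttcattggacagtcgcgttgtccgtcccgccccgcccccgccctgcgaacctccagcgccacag
Neither window held the TCF/LEF letters or AGGTCA, as was the case for Wnt7a. Their base composition differed, with a GC content of 51.2% for Fzd1 and 72.8% for Fzd4, compared with a median of 52.4% over all windows.

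Fzd5, the receptor through which Wnt3 is known to act in the crypt, passed the adjusted p with a small change. It was at 5586, 5997 and 5047 normalized counts with PBS and 4840, 4918 and 4024 with LDL, lower in each mouse and with no overlap of the groups. The log2 fold change was -0.27 (95% interval -0.45 to -0.10, adjusted p = 0.0454), which is 1.21-fold lower. It was not past the adjusted p with upper-quartile scaling (0.0584), in edgeR (0.0641), without a filter (0.0819), in DESeq2 (0.0888), without mouse 1 (0.136), without the block (0.241) or without mouse 3 (0.385). An antisense gene, Gm38058, overlaps 1257 of its 6939 exon bases at a mean normalized count of 18.3.

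Fzd6 and Fzd7 had higher means with LDL but gave no call. Fzd6, which inhibits β-catenin signaling in several settings and acts in planar cell polarity, was at 460, 288 and 340 normalized counts with PBS and 572, 390 and 411 with LDL, higher in all 3 mice while the groups overlapped. Its log2 fold change was 0.34 (95% interval 0.11 to 0.56, adjusted p = 0.0519). Over the alternatives the adjusted p ranged from 0.0373 (upper-quartile scaling) to 0.426 (no block), with 0.0410 in edgeR and 0.134 in DESeq2. Fzd7, a receptor of intestinal stem cells, was at 1082, 927 and 1452 with PBS and 1475, 1460 and 1402 with LDL. Fzd7 was higher in mouse 1 and mouse 2 but not in mouse 3 (log2 fold change 0.35, 95% interval 0.05 to 0.65, adjusted p = 0.112).

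As a share of the summed level of all Frizzled receptors per kilobase, Fzd5 made up 65.5% to 74.2% with PBS and 61.5% to 64.6% with LDL. The corresponding shares of Fzd7 were 13.6% to 22.3% and 22.7% to 25.4%. The shares of these receptors did not overlap between treatments, and Fzd5 stayed the leading receptor in every library. The summed level itself was 1165, 1164 and 1111 with PBS and 1090, 1097 and 942 with LDL.

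The other receptors stayed far from the threshold or were low. Fzd9 was at 20.4, 9.94 and 15.5 normalized counts with PBS and 26.8, 24.6 and 24.2 with LDL, with no overlap of the groups (log2 fold change 0.74, adjusted p = 0.142). Fzd8 (0.15, adjusted p = 0.692) and Fzd3 (0.16, adjusted p = 0.767) changed in different directions among mice.

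**Figure D3:**
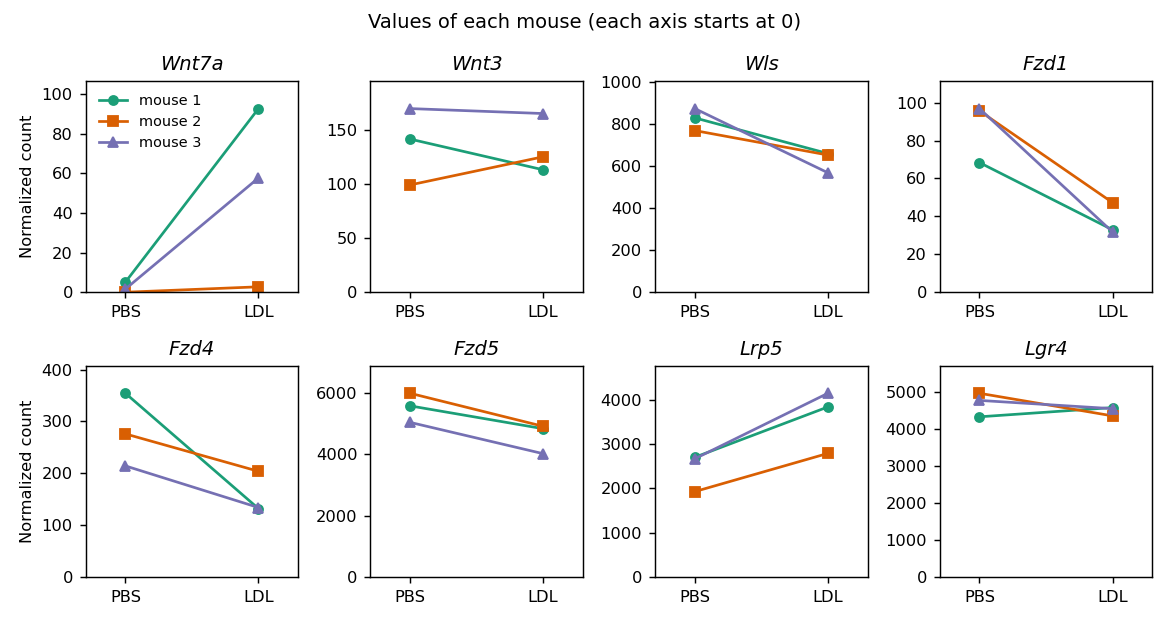
Normalized counts (linear axes starting at 0) of 8 members in PBS- and LDL-treated organoids, with 1 line per mouse. Wnt7a rises from 5.10 to 92.7 in mouse 1 but only from 0 to 2.73 in mouse 2, while the lines of Fzd1, Fzd4, Fzd5 and Wls fall and those of Lrp5 rise in all 3 mice.

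Of the partner receptors, Lrp5 passed the adjusted p in the higher direction, while Lrp6 and Lgr4 did not pass it. Whether Lrp5 and Lrp6 differed in their change was not tested. Lrp5, at chr19:3634821-3736643 of GRCm39, was at 2704, 1929 and 2670 normalized counts with PBS and 3842, 2792 and 4151 with LDL. It rose 1.42-, 1.45- and 1.55-fold in the 3 mice, and every LDL value lay above every PBS value. The log2 fold change was 0.56 ± 0.07 (SE; 95% interval 0.39 to 0.73, adjusted p = 0.00295), which at 1.47-fold is just under the fold needed for a call. Without mouse 3 the adjusted p was 0.0991, and without the block it was 0.156.

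Lrp6 was at 5799, 5731 and 5348 normalized counts with PBS and 6239, 5339 and 4907 with LDL. It was higher in mouse 1 and lower in the others, and the 95% interval of its log2 fold change, -0.23 to 0.15, held 0 (-0.04, adjusted p = 0.789). Per kilobase, Lrp5 was at 248 ± 44.6 and Lrp6 at 365 ± 15.8 with PBS, compared with 366 ± 72.5 and 356 ± 44.0 with LDL. The level of Lrp5 was below that of Lrp6 in all PBS-treated libraries, whereas their ranges overlapped with LDL. Lgr4 was at 4328, 4964 and 4772 normalized counts with PBS and 4577, 4353 and 4549 with LDL (log2 fold change -0.06, 95% interval -0.25 to 0.13, adjusted p = 0.683).

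Among the Sfrp and Dkk members, only Sfrp5 was expressed enough to be tested. It was at 80.6, 79.5 and 135 normalized counts with PBS and 31.7, 136 and 86.1 with LDL. It was lower with LDL in mouse 1 and mouse 3 and higher in mouse 2 (log2 fold change -0.40, 95% interval -1.21 to 0.42, adjusted p = 0.503). Without mouse 2 the log2 fold change was -0.98 with an adjusted p of 0.00222, and without mouse 1 it was 0.06. Sfrp1, Sfrp2 and Sfrp4 had at most 3 reads in any library.

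The 4 Dkk genes had 7 to 27 reads each over all libraries and were under the mean needed for a test. Dkk4, a Dkk gene known to be induced by Wnt signaling, had 3, 7 and 2 reads with PBS and 7, 3 and 5 with LDL. Dkk2 had no read with PBS and 4, 1 and 3 with LDL, so that its groups did not overlap, with an adjusted p of 0.460 in edgeR without a filter.

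The rest of the pathway was described with 7 lists of 96 genes, written by hand from general knowledge, of which 72 were tested. The lists were chosen with earlier results of these data known, so the shares and medians below are descriptions only. In these, 9 genes were called higher (12.5%, compared with 5.68% of all genes tested) and 0 lower in limma, and the median log2 fold change was 0.07. Among the 72, 1 gene (Mapk9, a JNK kinase) passed the adjusted p in the lower direction at a smaller fold (log2 fold change -0.35, adjusted p = 0.0213), and 1 gene (Igfbp4, an insulin-like growth factor binding protein that also inhibits Wnt receptors) rose among 4 tested inhibitors (log2 fold change 1.19, adjusted p = 0.00239).

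Target genes of β-catenin and TCF/LEF gave most of these calls. Of 18 targets tested, 6 were called higher, 3 more passed the adjusted p in the same direction under 1.5-fold (Rnf43, Sox9 and Ephb2), and 9 did not pass it. Their median log2 fold change was 0.39, compared with -0.02 over all genes tested. Sp5, a transcription factor directly induced by β-catenin, was at 65.3, 38.5 and 93.6 normalized counts with PBS and 207, 168 and 268 with LDL. All LDL values of Sp5 lay above the PBS values (log2 fold change 1.75, 95% interval 1.36 to 2.14, adjusted p = 0.000819).

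The other targets called were Tnfrsf19, a receptor of the tumor necrosis factor family (log2 fold change 1.51, adjusted p = 0.00223), Ascl2, a transcription factor of intestinal stem cells (1.22, adjusted p = 0.00333), Cd44, a hyaluronan receptor (1.16, adjusted p = 0.000432), Tcf7, a TCF/LEF factor (1.01, adjusted p = 0.00194), and Ccnd1, which encodes cyclin D1 (0.73, adjusted p = 0.000915). Ascl2 was at 118, 79.5 and 195 normalized counts with PBS and 248, 256 and 375 with LDL, so that its groups did not overlap, and its adjusted p was 0.0502 without mouse 3. The summed epithelial markers were also higher with LDL in each mouse, while Epcam was lower in each, as given above. Their part in the target values was not tested. Axin2 and Lgr5, commonly used readouts of the pathway, were not among the calls. Axin2 was at 3856, 2943 and 5679 with PBS and 4368, 4595 and 5136 with LDL, and Lgr5 was at 661, 502 and 937 with PBS and 854, 1232 and 683 with LDL. Both genes were higher with LDL in mouse 1 and mouse 2 and lower in mouse 3, and neither passed the adjusted p (Axin2 0.23, adjusted p = 0.316; Lgr5 0.40, adjusted p = 0.366). Leaving out mouse 2 turned the log2 fold change of Lgr5 to -0.04.

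**Figure D4:**
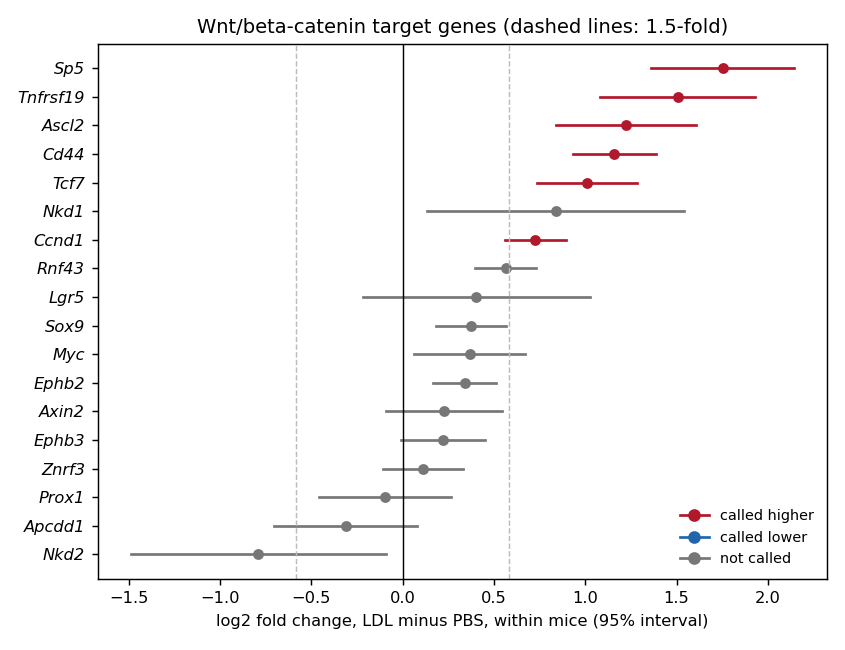
Log2 fold change (LDL minus PBS, within mice, n = 3) of the 18 Wnt/β-catenin target genes tested, with points for the estimate, bars for the 95% interval and dashed lines at 1.5-fold. Sp5, Tnfrsf19, Ascl2, Cd44, Tcf7 and Ccnd1 are called higher, and the intervals of Axin2 and Lgr5 include 0.

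The promoter of Sp5 is shown as the target with the largest change. Capitals mark the TCF/LEF letters, which occur at 222 and 104 bases before the RefSeq start in the window chr2:70474673-70474922 (GRCm38.p6, plus strand).
Sp5: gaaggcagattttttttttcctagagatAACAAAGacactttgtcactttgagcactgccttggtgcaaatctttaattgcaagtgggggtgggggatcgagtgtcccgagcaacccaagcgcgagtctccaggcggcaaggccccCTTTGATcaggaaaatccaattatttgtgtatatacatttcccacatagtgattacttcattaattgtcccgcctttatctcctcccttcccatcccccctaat
The first match is CTTTGTT read on the opposite strand, and the second is CTTTGAT. Windows with such a match make up 14.8% of all promoters, so a match is a description and not a binding site.

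The enzymes that remove Frizzled receptors from the surface belong to the same feedback. Rnf43 was at 2107, 1721 and 2133 normalized counts with PBS and 3044, 2488 and 3297 with LDL, with no overlap of the groups. Its log2 fold change of 0.56 (95% interval 0.40 to 0.73, adjusted p = 0.00279) was just under the fold needed for a call. Znrf3, its homolog, was at 1130, 840 and 909 with PBS and 1065, 1025 and 999 with LDL (log2 fold change 0.11, adjusted p = 0.476). Lgr5, Rnf43 and Znrf3 were the only genes of the R-spondin and LGR receptor list with enough reads to be tested. None of these was called in limma, while edgeR called Rnf43 higher (log2 fold change 0.5854, adjusted p = 0.00141). No R-spondin was tested.

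Inside the cell, 18 of 18 transducers were tested and none was called in limma. Ctnnb1, which encodes β-catenin, was at 7084, 7049 and 7874 normalized counts with PBS and 9629, 8245 and 9734 with LDL. It was higher in each mouse without overlap of the groups, but the change was small (log2 fold change 0.32, 95% interval 0.13 to 0.52, adjusted p = 0.0360) and did not pass without mouse 1 (0.250) or mouse 3 (0.288). The median of the list was -0.03. Of 12 nuclear factors tested, Tcf7 alone was called.

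Among the receptors outside the Frizzled family, Ptk7, a pseudokinase that binds Wnt ligands, was called higher of 6 tested (log2 fold change 0.60, adjusted p = 0.0263), and it lost the call without mouse 2 (log2 fold change 0.42) and without mouse 3 (adjusted p = 0.183). In the planar cell polarity list, Vangl1, a core membrane protein of that branch, was called higher of 16 tested (log2 fold change 0.98, adjusted p = 0.00627), with an adjusted p of 0.116 without mouse 3. The median of that list was -0.04. Without the mouse as a block, 0 of the 72 genes on the pathway lists were called in limma, with adjusted p-values of 0.0537 for Sp5 and 0.0656 for Ccnd1.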

How the data were processed

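Normalized counts were analyzed from 6 RNA-Seq libraries. Per the labels and methods, the authors aligned the reads to GRCm39 with STAR and counted them per gene with featureCounts. The deposited signal is reads divided by 1 size factor per library. Whole reads were recovered for 100% of values within 0.01 read. The annotation and strand setting of the counting are not given in the sources used here. Names and positions came from GENCODE M39, which held 54749 identifiers and lacked 667.

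Genes averaging 10 or more were transformed to log2(normalized count + 1). LDL and PBS were compared with limma 3.58.1 (mouse as block, eBayes with trend, two-sided, Benjamini-Hochberg adjustment) in R 4.3.3. Replicate numbers pair the libraries because both libraries of a number carry the same animal identifier in their sample description. Deviations from the treatment means correlated within mice at r = 0.48, 0.42 and 0.46 (across genes, which do not count as independent replicates). edgeR 4.0.16 and DESeq2 1.42.0 were run on recovered reads as alternatives, beside other pseudocounts, filters, scaling, no block and each mouse left out. Tests were run on simulated counts with the same dispersion for every gene. That check cannot show how the tests handle the library differences described above.

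The members and gene lists were chosen with earlier results of these data known. All members were accounted for. Values per library were given for called members, the leading member of each family, Lrp5, Lrp6, Lgr4, Wls and Porcn, and other members were added after their values were seen. On pathway lists, called genes were named, with Axin2, Lgr5, Ascl2, Rnf43, Znrf3 and Ctnnb1 whatever their change. Floors and reads cover counting error only. Endothelial, smooth muscle, immune and neuronal or glial markers were also checked, with S100b the only gene called among them (log2 fold change 3.12). S100b was at 1.02, 4.97 and 1.63 with PBS and 39.0, 14.6 and 32.6 with LDL. Like Wnt7a, it reached the mean needed for a test only through its LDL-treated libraries and was highest in those of mouse 1 and mouse 3.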

Additional observations from a re-analysis of the deposited data

How the results depend on the processing

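Over the alternatives, 353 of 391 values of the 33 genes tested by name kept their direction and their state as called or not called. Of the others, 21 lost the call, 4 gained one and 13 changed direction. Genes without a call count as unchanged when they stay without one, and crossings of the adjusted p alone are not counted. Fzd5, Lrp5 and Wls crossed it in some alternatives, with an adjusted p of up to 0.385, 0.156 and 0.355. Without the replicate block, 162 genes were called higher and 73 lower, compared with 1048 and 639 with it, and 0 members, 0 pathway genes and 0 target genes were called. Leaving out each mouse in turn gave 265 to 1604 genes higher and 77 to 1348 lower, 0 to 1 members higher and 0 to 4 lower, and 0 to 2 pathway genes lower. With any fold change, 1375 genes, 4 members and 1 pathway gene were lower, and 2 members and 14 pathway genes were higher. With a mean of at least 50, 0 members were higher, since Wnt7a was then not tested. edgeR without a filter called 2 members higher and 3 lower.

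The adjusted p over all alternatives ranged from 1.66e-24 to 0.176 for Wnt7a, from 2.19e-07 to 0.136 for Fzd1 and from 1.6e-06 to 0.163 for Fzd4. Wnt3, near 0 throughout, changed direction with upper-quartile scaling (0.0093), edgeR (0.0078) and DESeq2 (0.0049). With a mouse left out, its log2 fold change was -0.18 to 0.15, that of Lgr4 -0.13 to 0.0059, Lrp6 -0.11 to 0.0016, Wnt9b -0.37 to 0.47, Fzd3 -0.028 to 0.26, Fzd8 -0.11 to 0.37, Sfrp5 -0.98 to 0.063, Porcn -0.12 to 0.19 and Lgr5 -0.043 to 0.83. The causes were not tested. Without a filter, the median of all genes moved to 0.10. In edgeR without a filter it was 0.11. Members under a mean of 10 had at most 25 reads in a library, which limits their precision.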
